A study of Mus musculus with 8 samples.

Results

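The 9 genes studied encode amino acid transporters of the cell surface, and they were followed in mouse embryonic stem cells under 4 siPOOL treatments. They were given by symbol (Slc7a5, Slc3a2, Slc7a11, Slc7a1, Slc7a3, Slc38a1, Slc38a2, Slc1a4 and Slc1a5). All 9 were found among the 55421 gene identifiers of the count table, and all 9 were among the 14647 genes that passed the filter on low counts. A siPOOL is a pool of many small interfering RNAs directed at a single mRNA. The cells were of the E14 line, of 129/Ola background, and every group, the control included, lacked the miR-290-295 microRNA cluster. They grew on gelatin in 15% serum with 100 U/ml LIF, a cytokine that maintains self-renewal. Each was transfected with a siPOOL at 5 nM and harvested after 36 h. The groups were siTfap4, siWiz, siZic2 and siNeg, the negative control siPOOL. Tfap4 recognises E-boxes through a basic helix-loop-helix domain. Wiz works with the H3K9 methyltransferases G9a and GLP and has zinc fingers, as does the developmental regulator Zic2. Each group had 2 libraries, described in the series design as biological duplicates. No untransfected cells and no cells that carry the microRNA cluster are analysed here. The 3' ends of polyadenylated transcripts were counted, with 8326675 to 13788856 reads per library.

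Amino acids cross the plasma membrane through solute carriers that differ in substrate and in ion coupling. Slc3a2 (4F2hc, CD98) is a glycoprotein heavy chain that carries a light chain of the Slc7 family to the surface: with Slc7a5 (LAT1) it exchanges large neutral amino acids such as leucine, and with Slc7a11 (xCT) it exchanges cystine for glutamate. Slc7a1 (CAT1) and Slc7a3 (CAT3) carry arginine and lysine and need no heavy chain. Slc38a1 (SNAT1) and Slc38a2 (SNAT2) take up glutamine and other small neutral amino acids with sodium, and Slc1a4 (ASCT1) and Slc1a5 (ASCT2) exchange neutral amino acids in a sodium-dependent way. In many cell types, several of these genes are induced when amino acids run short, through the transcription factor Atf4.

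The 4 groups were first checked against the targets of their siPOOLs. Levels are CPM, in which the trimmed mean of M values (TMM) puts libraries of unequal depth on 1 scale, and fold changes are on the log2 scale with the siPOOL over siNeg. Tfap4 had 12.03 and 15.7 CPM in siTfap4, against 33.4 and 37.1 CPM in siNeg, and fell by 1.34 (SE 0.25, adjusted p = 0.00417, edgeR quasi-likelihood test). Wiz had 16.8 and 19.7 CPM in siWiz, against 49.9 and 46.1 CPM in siNeg (log2 fold change -1.40, SE 0.24, unadjusted p = 4.83e-05, adjusted p = 0.708). Zic2 had 2.15 and 1.83 CPM in siZic2, against 4.49 and 2.21 CPM in siNeg (log2 fold change -0.75, SE 0.45, adjusted p = 0.9997), and it had 2.59 and 2.01 CPM in siWiz. The siZic2 and siWiz libraries thus overlap in the gene that siZic2 targets, and each siZic2 value below belongs to the libraries with that label.

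All 11 embryonic stem cell markers were counted in all 8 libraries, with summed levels of 3187 to 3762 CPM. In siTfap4 against siNeg, 3 of the 11 rose (Pou5f1, Dppa4 and Lin28a), 1 fell (Nanog) and 7 were not called, where 15.9% of all tested genes were called, 4.24% as higher and 11.7% as lower. Markers of fibroblasts summed to 6.80 to 11.7 CPM, with Postn at 0 counts in every library, those of trophectoderm to 18.1 to 21.9 CPM, those of mesoderm to 1.52 to 6.30 CPM, and those of neural cells to 74.3 to 104 CPM, with Neurog2 at 0 counts. Thy1 made nearly all of the fibroblast sum, at 6.68 to 11.6 CPM, and Tubb3 made most of the neural sum, at 40.3 to 66.2 CPM. The 8 markers of primitive endoderm summed to more in siTfap4 than in any other group, with 659 and 505 CPM in siTfap4, 358 and 404 CPM in siWiz, 380 and 334 CPM in siZic2, and 427 and 444 CPM in siNeg. Sparc and Lama1 made most of this sum. Sparc had 609 and 471 CPM in siTfap4, against 398 and 418 CPM in siNeg, Lama1 had 42.03 and 28.0 CPM in siTfap4, against 23.3 and 20.4 CPM in siNeg, and each of the other 6 had at most 4.34 CPM in any library. Of the 6 tested primitive endoderm markers, 0 were called in siTfap4 against siNeg or siWiz by edgeR. Against siZic2, 2 were higher in siTfap4, where 23.1% of all tested genes were called, 8.41% as higher. At an unadjusted p under 0.05, 1 of the 6 passed against siNeg and 2 against siWiz. Of all tested genes, 32.4% and 31.6% passed in these comparisons. The siTfap4 libraries were also the shallowest, with 8326675 and 8829051 reads, and mitochondrial mRNAs made 3.55% and 4.61% of their counts, against 5.02% and 3.85% in siNeg. The part of these differences in the transporter results was not tested. In bulk RNA, fewer cells that express a gene and less RNA per cell cannot be told apart.

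The windows of 2 members around their transcription start hold the core of the amino acid response element, the sequence through which Atf4 and its C/EBP partners act, and they are shown because they were called in opposite directions in siTfap4. The windows run from 250 bases before the start to 50 bases after it, on the strand of the gene, in RefSeq on GRCm38.p6. Capitals mark TGATGNAA on either strand. The first is chr3:50443564-50443863 and the second chr11:20332664-20332963, both on the minus strand.
Slc7a11: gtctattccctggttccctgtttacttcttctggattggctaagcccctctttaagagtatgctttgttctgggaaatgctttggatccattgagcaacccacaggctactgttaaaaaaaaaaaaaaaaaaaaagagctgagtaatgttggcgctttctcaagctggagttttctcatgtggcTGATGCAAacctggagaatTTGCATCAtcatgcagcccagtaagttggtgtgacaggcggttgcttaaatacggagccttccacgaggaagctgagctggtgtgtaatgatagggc
Slc1a4: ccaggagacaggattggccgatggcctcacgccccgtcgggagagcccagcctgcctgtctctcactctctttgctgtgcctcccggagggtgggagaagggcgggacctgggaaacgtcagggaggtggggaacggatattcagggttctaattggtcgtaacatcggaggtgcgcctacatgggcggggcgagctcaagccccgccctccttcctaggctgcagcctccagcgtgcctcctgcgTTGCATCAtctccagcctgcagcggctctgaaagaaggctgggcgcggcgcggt

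Distances are from the first printed base of a match to the start. In Slc7a11 the core lay on the gene strand 66 bases before the start and on the opposite strand 47 bases before it. In Slc1a4 it lay on the opposite strand, began 4 bases before the start and ran across it. Of the 9, 5 matched the RefSeq table, with 6 windows (Slc3a2, Slc7a11, 2 for Slc7a1, Slc38a2 and Slc1a4). The Slc3a2 window (chr19:8713848-8714147) and 1 Slc7a1 window (chr5:148392766-148393065) lie inside the annotated gene, away from its outermost start. Neither held a motif searched for. The core was in 2 of these 6 windows and in 3.97% of all 32817 windows. The E-box CAGCTG was in 1 of the 6, a window of Slc7a1, 181 bases before its start, and in 16.3% of all windows. The E-box CACGTG was in 0 of the 6 and in 7.15% of all windows. The antioxidant response element core TGACNNNGC was in 2 of the 6, 1 of Slc7a1 and that of Slc38a2, and in 12.4% of all windows. The searches covered both strands and the motifs do not contain each other. A match describes the letters only. Slc7a5, Slc7a3, Slc38a1 and Slc1a5 were not among the matched entries.

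In siTfap4 against siNeg, 3 of the 9 transporter genes fell (Slc7a3, Slc38a1 and Slc7a11), 1 rose (Slc1a4) and 5 were not called. The 4 called make 4 of 9, where 15.9% of all tested genes were called, 4.24% as higher and 11.7% as lower. A call is an adjusted p under 0.05 over all 14647 genes tested. The calls were 621 higher and 1709 lower over all genes. Among protein-coding genes they were 1012 higher and 1592 lower with correction for GC content and length, and 756 higher and 1624 lower without it. The log2 fold changes of the 9 had a median of -0.84, where the median over all tested genes was 0.014. This median is the value of Slc7a5, which was not called, and the 9 ran from -1.76 to 0.98. For siTfap4 against siWiz and siZic2, the median of the 9 was 0.23 and -0.51. Between siTfap4 and siNeg, both CPM lay above both in 3 members and below both in 5, and the groups overlapped in Slc38a2 alone. Over all tested genes, 29.6% lay above and 29.5% below in this way. The summed level of the 9 was 1847 and 1962 CPM in siTfap4, 2289 and 2193 CPM in siWiz, 2485 and 2203 CPM in siZic2, and 2512 and 2394 CPM in siNeg.

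**Figure D1:**
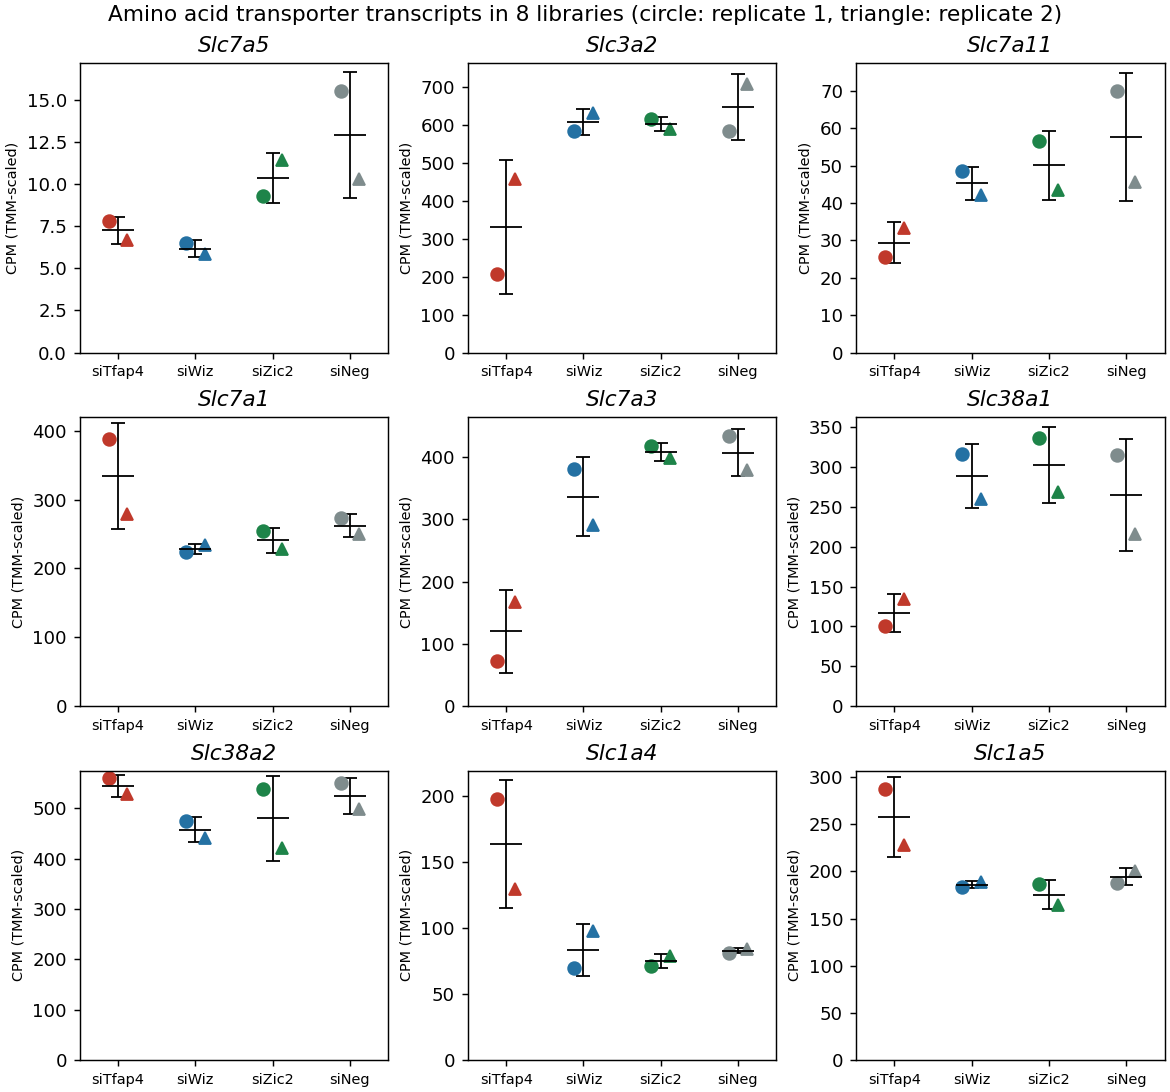
CPM of each of the 9 transporters (linear axis from 0, 1 panel per gene) in the 4 groups, with a point for each library (circle for replicate 1, triangle for replicate 2), a bar for the group mean and whiskers of 1 SD (n = 2). In Slc7a3 the siTfap4 points lie at 73.2 and 167 CPM and all other points at 291 CPM or above, while in Slc1a4 the siTfap4 points lie above all others.

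Of the heavy chain and its 2 light chains among the 9, Slc7a11 fell in siTfap4 against siNeg, and Slc3a2 and Slc7a5 were not called. Slc3a2 lies on chromosome 19 at 8706882 to 8723369, minus strand (GRCm38, as all positions here). It had 206 and 457 CPM in siTfap4, 585 and 633 CPM in siWiz, 615 and 589 CPM in siZic2, and 585 and 709 CPM in siNeg. Both siTfap4 libraries lay below the other 6, but they stood far apart from each other. The mean was 331 ± 177 CPM in siTfap4 and 647 ± 87.6 CPM in siNeg (SD, n = 2 each), and the log2 fold change of -0.97 (SE 0.31) missed the threshold (edgeR adjusted p = 0.0514). Leaving out siTfap4 replicate 2 gave -1.66 with a call (adjusted p = 0.00141), while leaving out replicate 1 gave -0.51 without one (adjusted p = 0.323). It was called in 8 of 10 other settings, DESeq2 among them (adjusted p = 0.0153), at adjusted p of 0.00308 to 0.0698, with a log2 fold change of -1.02 to -0.95. RLE size factors and a fit of the compared groups alone left it uncalled.

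Slc7a11, the cystine and glutamate exchanger, lies on chromosome 3 at 49892526 to 50443614, minus strand. It had 25.5 and 33.3 CPM in siTfap4, 48.4 and 42.1 CPM in siWiz, 56.6 and 43.6 CPM in siZic2, and 69.8 and 45.5 CPM in siNeg. Both siTfap4 libraries lay below the other 6, and the siWiz and siZic2 libraries overlapped siNeg. The gene fell by 0.97 in siTfap4 against siNeg (SE 0.27, edgeR adjusted p = 0.0299). The call ended without siTfap4 replicate 1 (log2 fold change -0.80, adjusted p = 0.196) and without siNeg replicate 1 (-0.61, adjusted p = 0.251). The annotated gene is long, and the identifiers Gm37692 and Gm37498 lie within it on the same strand. On the other strand, Gm37854, Gm37826 and Gm2345 overlap it. Gm37498 had 0 to 6 counts per library.

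Slc7a5, the exchanger of large neutral amino acids, was the scarcest of the 9 by counts, with 57 to 187 reads per library. It lies on chromosome 8 at 121881150 to 121907694, minus strand, and is overlapped by Gm20388 on the other strand. It had 7.81 and 6.68 CPM in siTfap4, 6.51 and 5.83 CPM in siWiz, 9.29 and 11.4 CPM in siZic2, and 15.5 and 10.3 CPM in siNeg. Both siTfap4 and siWiz lay below siNeg, and siZic2 overlapped it. Neither difference was called: the log2 fold change was -0.84 in siTfap4 (SE 0.31, edgeR adjusted p = 0.0848) and -1.07 in siWiz (SE 0.31, unadjusted p = 0.00438, adjusted p = 0.9998). Without 1 library at a time, the siWiz value ran from -1.33 to -0.72 with no call.

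Slc3a2 has other light chains, and 6 genes for them were counted (Slc7a5, Slc7a6, Slc7a7, Slc7a8, Slc7a10 and Slc7a11). Their summed level was 139 and 179 CPM in siTfap4, 172 and 177 CPM in siWiz, 187 and 178 CPM in siZic2, and 209 and 204 CPM in siNeg. Slc7a7, the light chain of cationic and neutral amino acid exchange, had 95.8 and 128 CPM in siTfap4, 98.5 and 115 CPM in siWiz, 105 and 108 CPM in siZic2, and 109 and 133 CPM in siNeg. In Slc7a7 the siTfap4 libraries overlapped those of each other group. In the sum, siTfap4, siWiz and siZic2 each lay below siNeg, and siTfap4 overlapped siWiz and siZic2.

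The cationic pair did not move together. Slc7a3 lies on chromosome X at 101079210 to 101086020, minus strand. It had 73.2 and 167 CPM in siTfap4, 381 and 291 CPM in siWiz, 417 and 398 CPM in siZic2, and 434 and 380 CPM in siNeg. Each siTfap4 library lay well below the other 6, replicate 1 furthest. Slc7a3 fell by 1.76 in siTfap4 against siNeg (SE 0.33, edgeR adjusted p = 0.00414), a 3.39-fold lower level. It kept its call with each of the 8 libraries left out in turn. The log2 fold change was -1.29 when siTfap4 replicate 1 was left out (adjusted p = 0.0248) and -2.49 when replicate 2 was (adjusted p = 0.00018).

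Slc7a1 lies on chromosome 5 at 148327410 to 148399904, minus strand. It had 388 and 279 CPM in siTfap4, 223 and 233 CPM in siWiz, 254 and 228 CPM in siZic2, and 274 and 250 CPM in siNeg. The siTfap4 libraries lay above the other 6, by a small margin in replicate 2. The log2 fold change in siTfap4 against siNeg was 0.35 (SE 0.23) and was not called (edgeR adjusted p = 0.317). Of the summed CPM of the pair, Slc7a3 made 15.9% and 37.4% in siTfap4 libraries, 63.1% and 55.5% after siWiz, 62.2% and 63.6% after siZic2 and 61.3% and 60.3% after siNeg. These shares are read across groups, not as a ratio of transcripts in a cell. A read counts a transcript end, so no scaling to length was applied.

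Of the sodium-coupled pair, 1 of 2 was called as well. Slc38a1 and Slc38a2 neighbour each other on chromosome 15, at 96571418 to 96642913 and at 96687392 to 96699730, both on the minus strand. Slc38a1 had 101 and 134 CPM in siTfap4, 316 and 260 CPM in siWiz, 336 and 269 CPM in siZic2, and 314 and 216 CPM in siNeg. All 6 other libraries lay above both siTfap4 libraries. Slc38a1 fell by 1.18 in siTfap4 against siNeg (SE 0.26, edgeR adjusted p = 0.0111). The call ended without siTfap4 replicate 1 (log2 fold change -0.99, adjusted p = 0.101) and without siNeg replicate 1 (-0.86, adjusted p = 0.0981).

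Slc38a2, the transporter long known to be induced when cells lack amino acids, had 560 and 529 CPM in siTfap4, 476 and 441 CPM in siWiz, 539 and 421 CPM in siZic2, and 550 and 499 CPM in siNeg. The siTfap4 and siNeg libraries overlapped, and the log2 fold change of 0.053 (SE 0.23, edgeR adjusted p = 0.897) was not called. Over 10 other settings it ran from -0.012, with scaling by library totals alone, to 0.31, with correction for GC content and length, and was called in 0. Slc38a1 made 15.2% and 20.2% of the CPM of the pair in siTfap4 libraries, 40.0% and 37.1% after siWiz, 38.4% and 39.0% after siZic2 and 36.4% and 30.2% after siNeg.

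**Figure D2:**
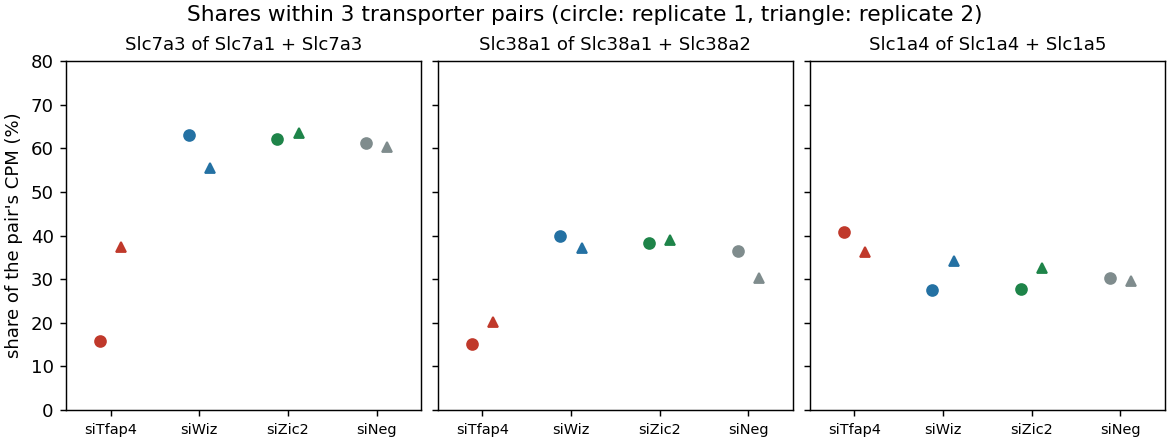
Share (%) of the summed CPM of a pair taken by Slc7a3 (with Slc7a1), Slc38a1 (with Slc38a2) and Slc1a4 (with Slc1a5), with a point for each library in the 4 groups. The siTfap4 points lie below all others for Slc7a3 (15.9% and 37.4%) and Slc38a1 (15.2% and 20.2%) and above all others for Slc1a4 (40.8% and 36.3%).

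The ASC pair, the neutral amino acid exchangers, was the one in which siTfap4 lay above every other group for both members. Slc1a4 lies on chromosome 11 at 20302180 to 20332713, minus strand. It had 198 and 129 CPM in siTfap4, 69.7 and 97.6 CPM in siWiz, 71.5 and 79.0 CPM in siZic2, and 81.3 and 84.2 CPM in siNeg. Both siTfap4 libraries lay above the other 6. Slc1a4 rose by 0.98 in siTfap4 against siNeg (SE 0.26, edgeR adjusted p = 0.0236). The call ended without siTfap4 replicate 1 (0.64, adjusted p = 0.213), without siNeg replicate 1 (0.98, adjusted p = 0.111) and without siNeg replicate 2 (1.00, adjusted p = 0.0646).

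Slc1a5, the glutamine exchanger, lies on chromosome 7 at 16781340 to 16798274, on the plus strand. It had 288 and 228 CPM in siTfap4, 183 and 189 CPM in siWiz, 186 and 164 CPM in siZic2, and 188 and 201 CPM in siNeg. The siTfap4 libraries lay above the other 6, and the log2 fold change of 0.41 in siTfap4 against siNeg (SE 0.22) was not called (edgeR adjusted p = 0.224). Slc1a4 made 40.8% and 36.3% of the CPM of the pair in siTfap4 libraries, 27.6% and 34.1% after siWiz, 27.8% and 32.5% after siZic2 and 30.2% and 29.5% after siNeg. For each of the 9 genes, 0 other genes matched the last 300 bases of a transcript at 90% identity or more, so reads of the paired genes are told apart by sequence.

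**Figure D3:**
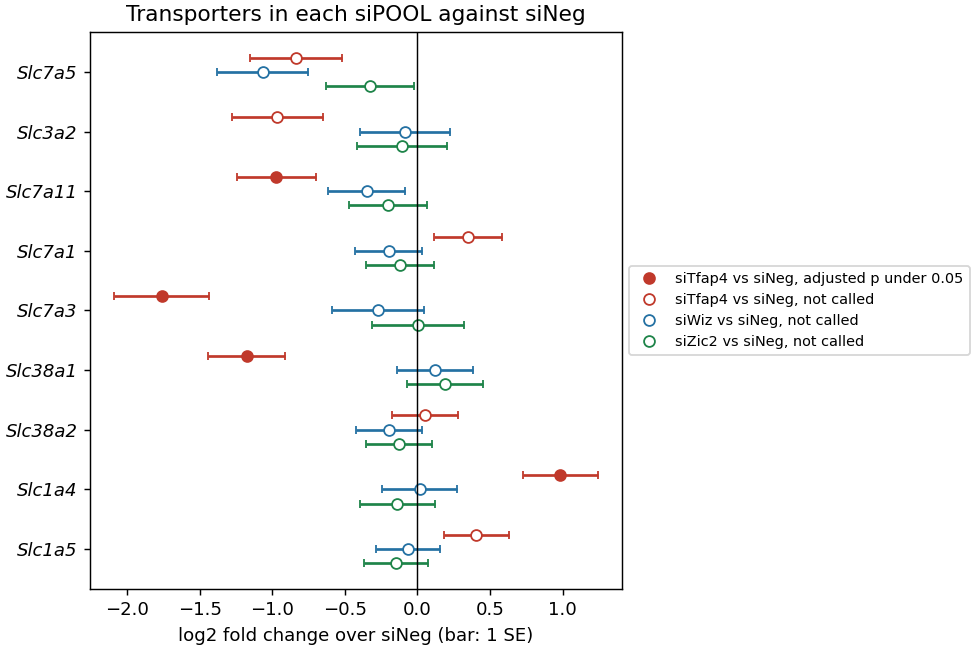
Log2 fold change (point) with 1 SE to each side (bar) for the 9 transporters in siTfap4, siWiz and siZic2, each against siNeg, with filled symbols for an adjusted p under 0.05. The filled symbols are those of Slc7a3 (-1.76), Slc38a1 (-1.18), Slc7a11 (-0.97) and Slc1a4 (0.98) in siTfap4.

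In siWiz against siNeg, 0 of the 9 transporters were called by edgeR, where 0% of all tested genes were. At an unadjusted p under 0.05, 1 of the 9 passed (Slc7a5) and 266 of all genes did. DESeq2 called 1 gene of all tested and 0 of the 9. The log2 fold changes of the 9 ran from -1.07 for Slc7a5 to 0.12 for Slc38a1, with a median of -0.20. Both siWiz libraries lay below both siNeg libraries in 3 of the 9 and above in 0, where 12.8% and 12.3% of all genes did. In siZic2 against siNeg, 0 of the 9 were called by edgeR and by DESeq2, where 0% of all genes were called by either. At an unadjusted p under 0.05, 0 of the 9 passed, and 86 of all genes did. The log2 fold changes ran from -0.33 for Slc7a5 to 0.19 for Slc38a1, with a median of -0.13 and SEs of 0.22 to 0.32. Both siZic2 libraries lay below both siNeg libraries in 2 of the 9 and above in 0, where 11.7% and 12.1% of all genes did. A missed threshold does not show that these levels were alike.

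Set against the other siPOOLs, siTfap4 had 3 of the 9 called in each comparison. These comparisons share the siTfap4 libraries with the one against siNeg. Between siTfap4 and siWiz, both CPM lay above both in 5 members and below in 4, where 30% and 31.8% of all genes did. Against siWiz, where 15.1% of all genes were called (4.66% higher, 10.4% lower), Slc7a3 fell by 1.49 (adjusted p = 0.0106), Slc38a1 fell by 1.30 (adjusted p = 0.00755) and Slc1a4 rose by 0.97 (adjusted p = 0.0252). All 3 calls against siWiz ended without siTfap4 replicate 1, at adjusted p = 0.0746, 0.0783 and 0.234, and without siWiz replicate 1, at 0.0943, 0.0801 and 0.249, for Slc7a3, Slc38a1 and Slc1a4 in this order. Without siTfap4 replicate 2, Slc7a3 stood at -2.21. Between siTfap4 and siZic2, both lay above both in 3 members and below in 5, where 32.9% and 33.8% of all genes did. Against siZic2, where 23.1% of all genes were called (8.41% higher, 14.7% lower), Slc7a3 fell by 1.76 (adjusted p = 0.00288), Slc38a1 fell by 1.37 (adjusted p = 0.00373) and Slc1a4 rose by 1.12 (adjusted p = 0.00951). Against siZic2, Slc7a3 and Slc38a1 kept their calls with each library left out, with Slc7a3 at -2.49 without siTfap4 replicate 2. Slc1a4 lost its call without siTfap4 replicate 1 (adjusted p = 0.0963), siZic2 replicate 1 (0.0991) or siZic2 replicate 2 (0.0586).

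Between siWiz and siZic2, edgeR called 0 of the 9 and 0% of all genes, and DESeq2 called 0 of each. At an unadjusted p under 0.05, 384 of all genes passed and 1 of the 9, Slc7a5, with a log2 fold change of -0.74 (unadjusted p = 0.0341, adjusted p = 0.9997). Both siWiz libraries lay below both siZic2 libraries in 2 of the 9 and above in 0, where 16.9% and 18.1% of all genes did.

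**Figure D4:**
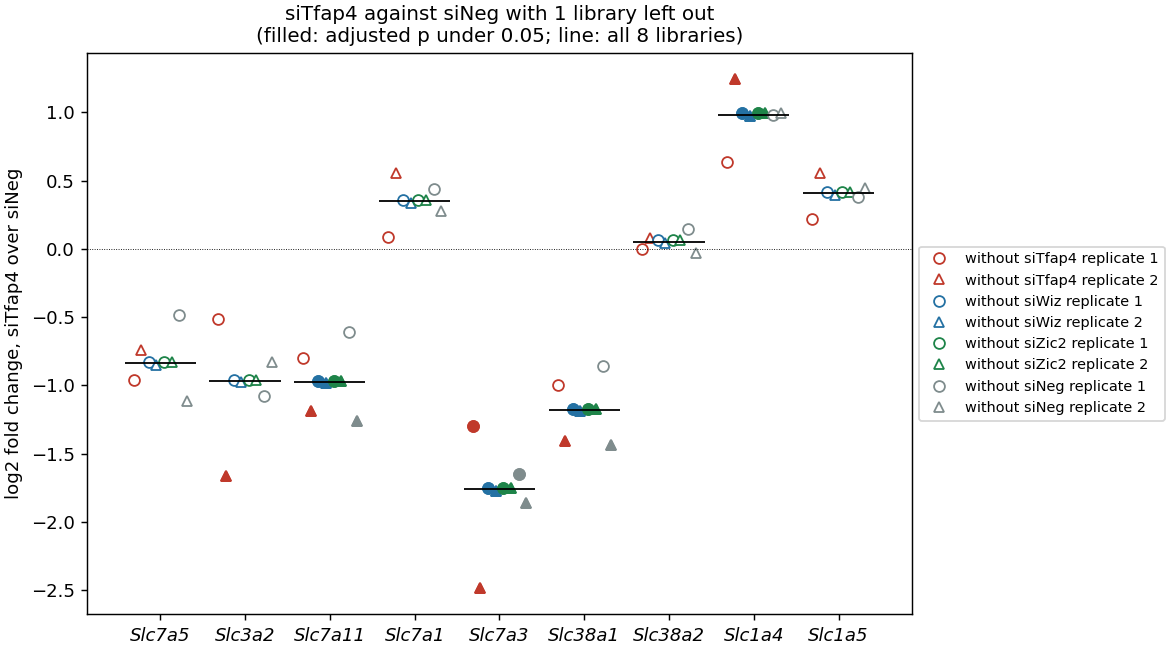
Log2 fold change of each transporter in siTfap4 against siNeg with each of the 8 libraries left out in turn (1 point per library left out, filled for an adjusted p under 0.05) and the value from all 8 libraries as a line. The 8 points of Slc7a3 are filled, from -2.49 to -1.29, while Slc38a1, Slc7a11 and Slc1a4 each have open points.

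The other genes of amino acid uptake and sensing were described by 7 lists, read beside the 15.9% of all tested genes called in siTfap4 against siNeg. Of 20 tested further surface transporters, 0 rose, 2 fell and 18 were not called, and the median log2 fold change was -6.9e-05. Slc36a1, a proton-coupled transporter of small amino acids that also sits on lysosomes, had 2.48 and 5.86 CPM in siTfap4, against 11.6 and 10.2 CPM in siNeg (log2 fold change -1.38, adjusted p = 0.0281). Slc6a6, the taurine transporter, had 94.5 and 70.5 CPM in siTfap4, against 268 and 120 CPM in siNeg (-1.24, adjusted p = 0.0416).

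Genes of lysosomal amino acid sensing and mTORC1, the kinase complex that amino acids recruit to the lysosome, were called in 12 of 30 tested (40.0%): 1 rose, 11 fell and 18 were not called, with a median of -0.31. Flcn, which acts on Rag GTPases as a GTPase-activating protein, had 4.34 and 8.68 CPM in siTfap4, against 34.6 and 36.4 CPM in siNeg (log2 fold change -2.44, adjusted p = 0.0008). Rraga and Rragc encode Rag GTPases. Rraga had 49.7 and 95.7 CPM in siTfap4, against 246 and 292 CPM in siNeg (-1.89, adjusted p = 0.0029). Rragc had 15.4 and 27.6 CPM in siTfap4, against 66.4 and 66.2 CPM in siNeg (-1.63, adjusted p = 0.0024). In these 3 genes, named for the smallest p in this comparison, both siTfap4 libraries lay below both siNeg libraries. Of all tested genes, 29.5% lay below in this way, but the 3 were chosen by p and cannot be set against that share.

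Of 18 tested genes of the amino acid starvation response, 5 rose, 1 fell and 12 were not called, with a median of 0.23. Atf4, the transcription factor at the centre of this response, had 1105 and 780 CPM in siTfap4, against 491 and 562 CPM in siNeg (log2 fold change 0.84, adjusted p = 0.0422). Ddit3 (CHOP), a factor induced by Atf4, had 60.0 and 33.4 CPM in siTfap4, against 19.4 and 17.5 CPM in siNeg (1.34, adjusted p = 0.0106). Ppp1r15a (GADD34), which directs dephosphorylation of eIF2-alpha, was the member that fell, with 10.04 and 16.2 CPM in siTfap4, against 36.7 and 33.7 CPM in siNeg (-1.42, adjusted p = 0.0047). The list thus held genes called in both directions.

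Of 18 tested genes of cystine use and glutathione synthesis, 5 rose, 3 fell and 10 were not called, with a median of -0.0042. Those that fell were Cth, which makes cysteine from cystathionine (log2 fold change -1.48), Gpx4, which reduces lipid peroxides (-1.59), and Gsr, which reduces oxidised glutathione (-1.66). Cth had 58.0 and 136 CPM in siTfap4, against 276 and 265 CPM in siNeg (adjusted p = 0.0095). Gpx4 and Gsr were called at adjusted p = 0.0156 and 0.0209. Those that rose were Cbs (1.15), Hmox1 (1.14), Mpst (1.13), Keap1 (0.85) and Chac1 (0.76), at edgeR adjusted p of 0.0213 to 0.0450.

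Of 27 tested enzymes that use glutamine, arginine, methionine or branched-chain amino acids, 0 rose, 3 fell and 24 were not called, with a median of 0.30. Glud1, glutamate dehydrogenase, had 147 and 222 CPM in siTfap4, against 446 and 553 CPM in siNeg (log2 fold change -1.44, adjusted p = 0.0034). Aldh18a1, which starts proline synthesis from glutamate, had 4.59 and 5.39 CPM in siTfap4, against 30.1 and 16.5 CPM in siNeg (-2.22, adjusted p = 0.0076). Tdh, the threonine dehydrogenase of mouse embryonic stem cells, had 326 and 371 CPM in siTfap4, against 561 and 590 CPM in siNeg (-0.72, adjusted p = 0.0471). The median of this list and its 3 calls differ in sign.

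Of 12 tested transcription factors described as acting on transporter genes, 3 rose, 4 fell and 5 were not called, with a median of -0.29. Ddit3 is among them, as are Max, the dimerisation partner of Myc proteins (log2 fold change -1.19, adjusted p = 0.0128), and Yap1, the effector of Hippo signalling (-1.29, adjusted p = 0.0148). Of 9 tested ubiquitin ligases and adaptors of transporter turnover, 0 rose, 2 fell and 7 were not called, with a median of 0.31. Txnip, an arrestin-domain protein best known for control of glucose uptake, had a log2 fold change of -4.88 (adjusted p = 0.0001), and Arrdc3, another arrestin-domain protein, one of -1.11 (adjusted p = 0.0124). Here too the median and the calls differ in sign. Neither siWiz nor siZic2 had a called member in any of the 7 lists against siNeg (0 in each, edgeR). Over all tested genes, 0% were called in either comparison, so no list could hold a call.

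The counts of all 7 lists changed when a library was left out, an alternative chosen after seeing the data. The number called over all tested genes changed as well. It was lowest without siTfap4 replicate 1 and next lowest without siNeg replicate 1. The list counts cannot be read apart from that change. Without siTfap4 replicate 1, the genes called were 0 of the further surface transporters, 4 of lysosomal sensing, 1 of the starvation response, 0 of cystine use, 1 of the enzymes, 0 of the transcription factors and 1 of the ubiquitin ligases and adaptors. Without siNeg replicate 1, they were 0, 5, 1, 3, 1, 2 and 1 in the same order. Over all 8 libraries left out in turn, the counts reached at most 3, 14, 7, 8, 4, 7 and 2.

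**Figure D5:**
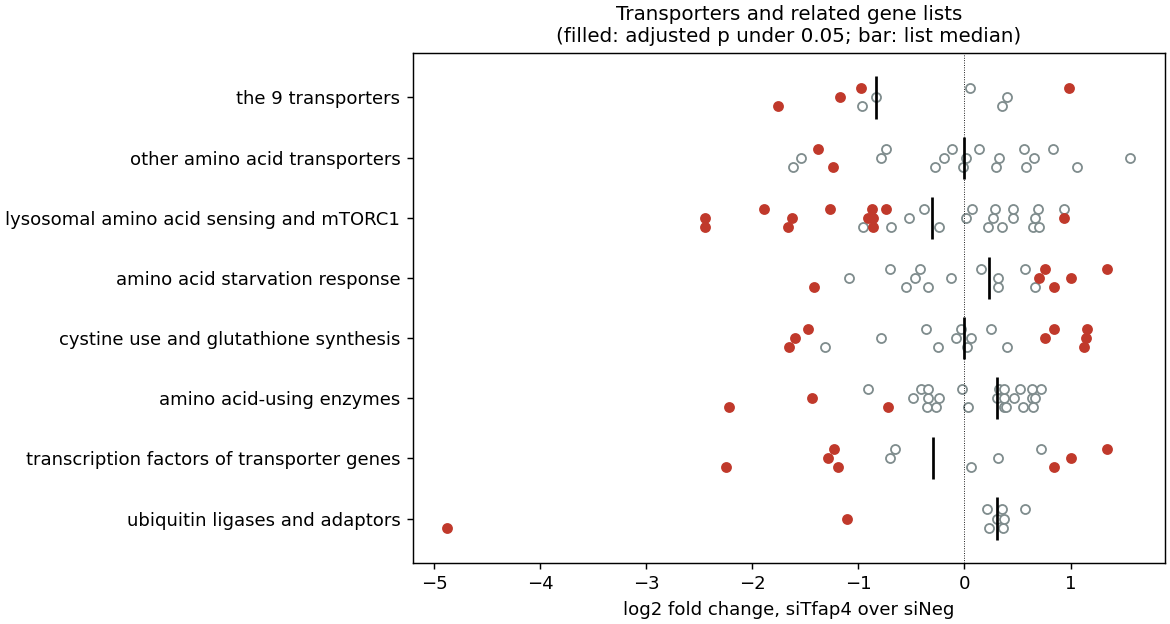
Log2 fold change in siTfap4 against siNeg of the 9 transporters and of each tested gene of the 7 lists, with a point per gene (filled for an adjusted p under 0.05) and a bar for the median of the list. The transporters have the lowest median (-0.84, the value of Slc7a5, which was not called), followed by lysosomal sensing (-0.31).

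For the 4 transporters called in siTfap4 against siNeg, the genes whose log2 CPM followed them most closely over the 8 libraries were taken from 9595 protein-coding genes with a mean of at least 5 CPM. They were Bcar1 and Ctbp1 for Slc7a3 (Pearson r = 0.997 for both), Ccdc14 and Ptgfrn for Slc38a1 (0.993 and 0.992), Psme4 for Slc7a11 (0.989), and Nmt1 and Farsa for Slc1a4 (0.993 for both). Bcar1 averaged 9.31 CPM in siTfap4, 44.5 CPM in siWiz, 64.0 CPM in siZic2 and 56.1 CPM in siNeg. Farsa averaged 525 CPM in siTfap4, 240.5 CPM in siWiz, 217 CPM in siZic2 and 243 CPM in siNeg. Among the transporters themselves, r was 0.94 between Slc7a3 and Slc38a1, 0.90 between Slc7a3 and Slc7a11, 0.93 between Slc1a4 and Slc1a5, and -0.98 between Slc7a3 and Slc1a4. Other pairs were less close. For Slc7a5, r was 0.20 with Slc3a2 and 0.58 with Slc7a11, and it was -0.38 between Slc38a1 and Slc38a2. These values describe 8 libraries that share depth and group, with the siTfap4 libraries at one end for each called transporter.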

How the data were processed

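QuantSeq 3' mRNA-Seq FWD libraries were made from 500 ng of RNA, per the labels' protocols. The file deposited by the authors holds raw counts, 1 column for each of 8 libraries and 1 row for each of 55421 Ensembl identifiers. Of these, 55240 were matched to symbols in GENCODE M21, and 0 columns were left unmapped. Trim Galore and the GRCm38 build come from the submitters' processing notes. Which aligner, counting program, strand setting or molecular identifiers were used is not given in the sources used here, so a gene and an overlapping partner may share reads.

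After filterByExpr, 14647 genes were scaled by TMM and tested by quasi-likelihood in edgeR 4.0.16 (R 4.3.3). All 8 libraries entered 1 fit with 1 mean per group. Benjamini-Hochberg adjustment ran over these genes in each comparison, with a threshold of 0.05. The biological coefficient of variation was 22.2%, with 4 residual and 9.70 prior degrees of freedom. The SE comes from the F statistic. Libraries of the same group differed beyond counting noise, with chi-square per degree of freedom of 17.7 to 37.7. The fitting code was tested on simulated data.

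The members, gene lists and tests were chosen with earlier results of these data known. The naming rule took the 9 members, the 3 targeted genes, up to 3 called genes of each list with the smallest p in siTfap4 against siNeg, and the 2 genes most correlated with each called member over log2 CPM with a prior count of 2. Of these correlated genes, 1 is not reported here. The stem cell markers called and the genes of cystine use that rose fall outside the naming rule. So do the values of Slc7a7, Sparc, Lama1, Thy1 and Tubb3, and of Zic2 in siWiz. All were chosen after their values were seen.

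The alternatives changed the scaling (RLE size factors, or library totals), the filter (only 1 count in total, or at least 5 CPM on average), the libraries (each left out, or only those compared), the genes (protein-coding ones), the tool (DESeq2 1.42.0) or the model. The last meant a block for the replicate number, offsets for transcript length and the GC content of the final 300 bases, or both. Protein identity between the members was not computed.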

Additional observations from a re-analysis of the deposited data

How the results depend on the processing

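Under every alternative tried, Slc7a3 stayed called as lower in siTfap4 against siNeg. The other calls depended on which libraries were in the fit. With 1 library left out in turn, the 9 transporters called numbered 1 to 5 against siNeg, 0 to 5 against siWiz and 2 to 6 against siZic2, and the genes called numbered 504 to 3322, 401 to 3279 and 905 to 4057. The lowest counts of genes came without siTfap4 replicate 1, and the cause was not tested. Against siWiz, 1411 genes were called with the compared groups alone. With correction for GC content and length, 5 transporters and 2433 of 12483 genes were called. Against siZic2, 5 transporters were called with no filter beyond 1 count, 5 with DESeq2 and 6 with the GC and length correction. Over all genes, these settings called 3734 of 26969, 3459 of 13897 and 3375 of 12483, in this order. In siWiz against siNeg, 12 genes were called with no filter and 1 with DESeq2, none of them a transporter. In siWiz against siZic2, 23 were called with no filter. Wiz itself passed with no filter (log2 fold change -1.40, adjusted p = 0.0118) and with DESeq2 (-1.40, adjusted p = 0.00553), where adjusted p over its alternatives ran to 1.0.

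The replicate numbers were taken as labels only, since same-numbered libraries of siTfap4 and siWiz did not deviate together (correlation -0.043, against 0.134 to 0.332 in the other 5 pairs of groups). With the replicate number as a block, 3243, 3056 and 4391 genes were called in siTfap4 against siNeg, siWiz and siZic2, and 5, 4 and 6 transporters. Those gained were Slc3a2 in each of the 3, and also Slc7a11 and Slc1a5 against siZic2. With the block and the GC and length correction, 5, 6 and 7 transporters were called. Of 12483 protein-coding genes, 3161, 2949 and 3950 were called in this setting. Without either, 2330, 2207 and 3379 genes and 4, 3 and 3 transporters were called.

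Uncalled values near 0 changed sign. In siTfap4 against siNeg, the log2 fold change of Slc38a2 was -0.012 with library totals alone, 0.31 with the GC and length correction, and -0.027 to 0.14 with 1 library left out. In siWiz against siNeg, Slc1a4 stood at -0.0021 with library totals, -0.020 with the GC and length correction and -0.017 with the block added, and at -0.25 to 0.24 with 1 library left out. In the same comparison, leaving out 1 library gave -0.21 to 0.054 for Slc3a2, -0.63 to 0.0051 for Slc7a11 and -0.13 to 0.43 for Slc38a1. In siZic2 against siNeg, Slc7a3 stood at -0.0437 with the GC and length correction and at -0.0440 with the block added. Leaving out 1 library gave -0.090 to 0.14 for Slc7a3, -0.59 to 0.040 for Slc7a5, -0.20 to 0.039 for Slc3a2, -0.48 to 0.17 for Slc7a11, -0.058 to 0.52 for Slc38a1 and -0.29 to 0.057 for Slc38a2.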
